A study of Mus musculus with 90 samples.

Results

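CD8 T cells of the non-draining lymph node were compared between double-knockout mice (labelled DKO, 4 libraries) and control mice (labelled yfp, 3 libraries), that is 7 of the 90 libraries of the series. These 7 were chosen by their titles, which give the population NDLN, the genotype and the cell type. The series concerns mice in which regulatory T cells (Tregs) lack IL-10, IL-35 or both, per its design text, and the CD8 cells themselves were read out. The other node CD8 libraries, 2 labelled Il10 and 3 labelled Ebi3L, entered the same fit and are given beside the DKO values, and 48 libraries of CD8 cells sorted from tumours by PD-1 and TIM-3, with the same 12 combinations of genotype and set label (called sources here), served for comparison. The labels place the yfp libraries in batch 1 (replicates 1 and 2) and batch 3 (replicate 3), and the DKO libraries in batch 1 (replicates 1, 3 and 4) and batch 2 (replicate 2). The Il10 libraries lie in batches 2 and 1, and the Ebi3L libraries in batches 1, 3 and 3. The labels name neither the age of the mice, the tumour line nor the Cre driver, and do not say what yfp stands for. They also leave unsaid whether a library came from 1 mouse or from pooled mice, and p-values therefore describe only the scatter among libraries.

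A CD8 T cell in a lymph node away from a tumour is mostly a resting cell: it keeps the factors TCF-1 (Tcf7) and LEF-1, the homing receptor CCR7 and the IL-7 receptor, and it holds few transcripts of cytokines or granzymes. IL-10 acts through the receptor chains encoded by Il10ra and Il10rb and mainly through STAT3, which induces Socs3. IL-35 joins EBI3 to the p35 chain encoded by Il12a and is known to act through gp130 (Il6st) and the receptor chain encoded by Il12rb2, with STAT proteins, STAT4 among them, downstream. Both cytokines are known as products of Tregs that restrain effector T cells.

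The 12 node CD8 libraries held 19215118 to 29391386 counts over genes, with 11712 to 12703 genes detected, so that 3 counts corresponded to 0.102 to 0.156 CPM (counts scaled to the library total). All carried the CD8 lineage: Cd8a ranged from 1095 to 1283 CPM in DKO and from 1172 to 1344 CPM in yfp, and the 8 CD8 T cell markers measured summed to 6824 to 7050 CPM in DKO and to 6884 to 9955 CPM in yfp. Several defining genes of other cells were at or near 0: Pax5, Csf1r, C1qa and Ncr1 had no count in any of the 12 libraries, Lyz2 reached 2.12 CPM, and Cd4 was at 0 except for 4.26 CPM in yfp 2. Other markers were detected. Of 9 NK and innate lymphoid markers tested, 4 were higher in DKO than in yfp and 5 lower, with Klrb1c higher and Klri2 lower at an unadjusted p under 0.05. Klrb1c was at 0 CPM in all yfp libraries and at 0, 4.33, 2.73 and 10.9 CPM in DKO. DESeq2 called it (adjusted p = 0.00981) and edgeR did not. Il10 and Il12a had no count in any node CD8 library, which is an upper limit of 0.156 CPM or less for each, and Ebi3 reached 1.54 CPM in yfp 2. Across the 12 libraries, the summed B cell markers came to 48.8 to 110.5 CPM, plasma cell markers to at most 2.53 CPM, NK and innate lymphoid markers to 41.9 to 103 CPM, γδ T cell markers to 7.65 to 60.2 CPM, erythroid and platelet markers to 0.966 to 7.70 CPM, pigment cell markers to 13.6 to 29.9 CPM, MHC class II genes to 196 to 307 CPM, and stromal markers, mostly Vim and Pecam1, to 419 to 635 CPM. At these levels the node libraries do not check the genotype labels. In the tumour CD8 counts summed per source, Ebi3 was at 3.63 to 9.999 CPM in yfp and 2.80 to 16.1 CPM in Il10, against 0 to 0.552 CPM in Ebi3L and 0.039 to 0.455 CPM in DKO, groups without overlap (DKO minus yfp -5.19 ± 1.28, edgeR adjusted p = 0.574). Il10 overlapped there, at 0.421 to 3.37 CPM in yfp, 0.118 to 0.532 CPM in Il10 and 0.256 to 16.2 CPM in DKO. The libraries of set 8 (yfp 1 and DKO 1) held Xist at 409 and 539 CPM and no Ddx3y, whereas the other 10 held Ddx3y at 155 to 322 CPM and Xist at 1.77 CPM or less. Eif2s3y, Kdm5d and Uty were likewise at 0 in set 8 and detected in the other 10. By these genes the set 8 libraries read as female and the other 10 as male. The main fit held no term for sex, and leaving out set 8 leaves out the female libraries. The pairs yfp 1 with yfp 3 and yfp 2 with yfp 3 differed far more than the pair in batch 1 (chi-square per degree of freedom 373 and 327 against 88.7). DKO 2, the only DKO library of batch 2, was the farthest of the DKO libraries from the others for 7 of the 8 genes whose DKO values held an outlying library. No pair of libraries in a group agreed within sampling noise.

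No gene passed the test between DKO and yfp node CD8 cells. The edgeR quasi-likelihood test with batch as a term, over 12336 genes, called 0 genes at a Benjamini-Hochberg adjusted p under 0.05 (0.0% of genes), and the smallest adjusted p was 0.21. At an unadjusted p under 0.05, 278 genes were higher in DKO (2.25% of those tested) and 248 were lower (2.01%). The median log2 difference over all genes was -0.0005, a value that the TMM scaling centres near 0. DESeq2 on the same libraries and design called 81 genes (0.659%), 46 higher and 35 lower in DKO, of which 19 had a mean of at least 5 CPM in one group. Without a filter on low counts edgeR called 22 genes, among them Anxa2 (adjusted p = 8.89e-08), Xcl1 (0.00175), Itgb1 (0.00463), Cd160 (0.00664) and Iigp1 (0.0138), which are described with their lists. The spread of the libraries set what could be seen: the 95% interval of the difference lay within 1 on the log2 scale on either side of 0 for 6069 of 12336 genes, and for 5942 of the 7298 genes (81.4%) with a mean of at least 20 CPM in yfp or DKO.

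The resting programme showed no difference that passed the test. All 20 naive and central memory genes were measured, none had an unadjusted p under 0.05, and their median log2 difference was 0.04, beside -0.0005 over all genes. For 19 of the 20 the 95% interval lay within 1 of 0. Tcf7 stood at 676, 671 and 456 CPM in yfp 1, 2 and 3 and at 679, 762, 883 and 780 CPM in DKO 1, 2, 3 and 4. The DKO libraries were all above yfp, but the nearest pair differed by little, and the fitted difference was 0.21 ± 0.11 (SE), with a 95% interval from -0.02 to 0.43. Ccr7 gave an interval from -0.19 to 0.28, Lef1 from -0.17 to 0.28, Il7r from -0.31 to 0.18 and the survival gene Bcl2 from -0.24 to 0.34. Klf2, a quiescence factor that maintains S1pr1, gave an interval from -0.13 to 0.50, and S1pr1, the receptor for exit from the node, one from -0.19 to 0.53. In the 27 T cell receptor signalling genes the median was -0.01, no member had an unadjusted p under 0.05, and all 27 intervals lay within 1 of 0.

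Further T cell genes, of lineage and of memory, effector and exhausted states, also showed no difference that passed the test. The CD8 β chain gene Cd8b1 averaged 2247 CPM in yfp and 2049 CPM in DKO (-0.01 ± 0.09), and Cd3e 540 and 757 CPM (0.04 ± 0.12), where yfp 3 alone was low at 288 CPM. Il2rb, the IL-15 receptor chain of memory cells, differed by less than its SE of 0.25 (96.0 and 135 CPM), Cxcr3, a homing receptor of memory and effector cells, by 0.08 ± 0.19 and the chemokine gene Ccl5 by -0.23 ± 0.24. Ccl5 spread widely, from 141 to 381 CPM in yfp and from 85.3 to 316 CPM in DKO, with DKO 2 the highest of its group. Tox (0.09 ± 0.20), Id2 (-0.09 ± 0.14) and Id3 (0.03 ± 0.22), regulators of exhausted, effector and memory precursor cells, had intervals within 1 of 0. Prdm1, Maf and Bcl6 were low in yfp, at 2.59, 1.03 and 3.92 CPM on average, and too variable for a difference to be read.

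**Figure D1:**
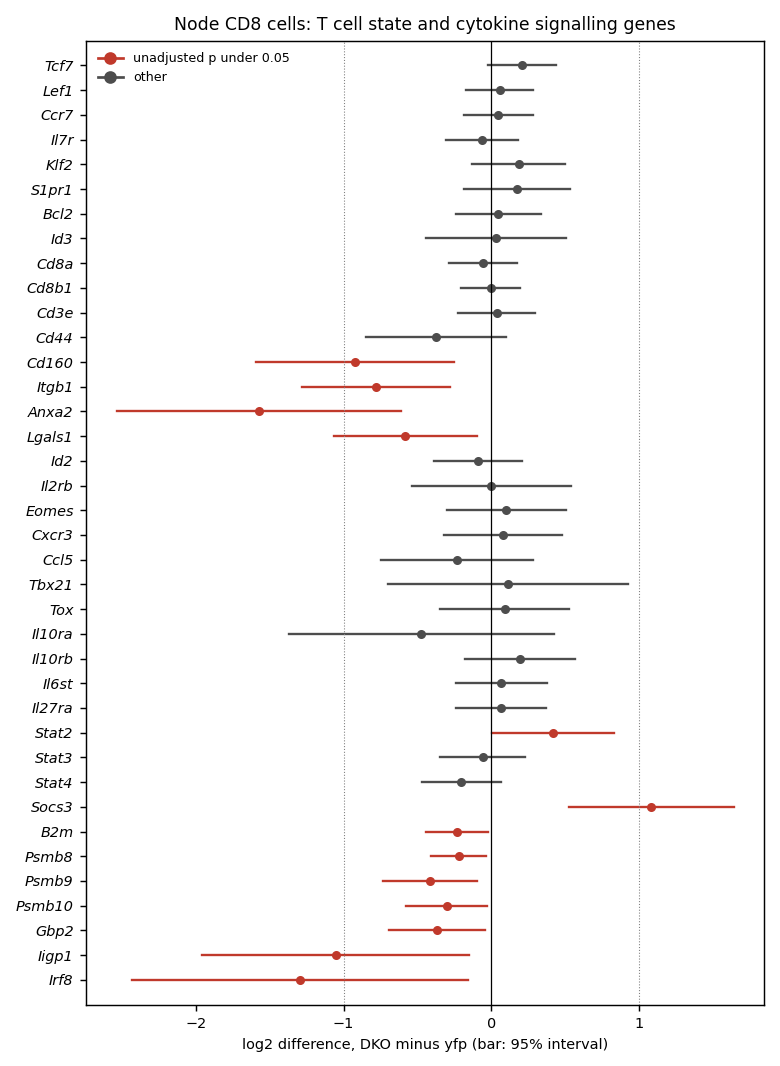
Log2 difference between DKO and yfp node CD8 cells (x axis) for T cell state, cytokine receptor, STAT and interferon-related genes (y axis), from the edgeR fit of 12 libraries; points are estimates, bars 95% intervals, red an unadjusted p under 0.05, dotted lines a difference of 1. The resting genes at the top sit near 0 with narrow bars, Socs3 is at 1.08 and Anxa2 at -1.57; none passed the adjusted threshold.

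Several cytokine, chemokine and granzyme transcripts of activated cells were sparse in both genotypes. More of the cytotoxic and cytokine genes lay below 0 than above, without a member passing the test. Of 20 such genes, 14 were below 0 and 6 above, and the median log2 difference was -0.63. Over all genes, 6175 were below 0 and 6161 above. The interval lay within 1 of 0 for only 5 of the 20, so most differences were poorly resolved. At an unadjusted p under 0.05, 4 were lower in DKO and 0 higher, beside 2.01% and 2.25% of all genes. These were Ccl3, Ccl4, Xcl1 and Il2. Ccl4, which encodes the chemokine MIP-1β released by activated CD8 cells, stood at 29.4, 32.2 and 12.6 CPM in yfp and at 3.75, 2.76, 1.45 and 5.31 CPM in DKO. Every DKO library was below every yfp library, and the fitted difference was -3.003 ± 0.56 (edgeR adjusted p = 0.21; DESeq2 adjusted p = 0.000215). The fitted difference from yfp was -2.93 in Il10, whose 2 libraries held 3.28 and 3.27 CPM, and 0.22 in Ebi3L. Xcl1, which encodes a chemokine that attracts cross-presenting dendritic cells, stood at 10.6, 59.8 and 13.5 CPM in yfp and at 12.1, 20.03, 5.85 and 5.39 CPM in DKO, so that its difference of -1.93 ± 0.57 came from overlapping groups. The yfp 2 library carried most of it: without that library it was -0.34 (unadjusted p = 0.469). Ccl3, the gene of MIP-1α, was at 5.35, 2.52 and 0 CPM in yfp and at 0, 0, 0 and 0.0405 CPM in DKO. Il2 was between 0.933 and 4.67 CPM in yfp and between 0.052 and 1.48 CPM in DKO. Genes of the cytotoxic granule had no unadjusted p under 0.05. Prf1, the perforin gene, averaged 76.6 CPM in yfp and 103.5 CPM in DKO (0.32 ± 0.21), and Nkg7, a granule gene, 2620 and 1813 CPM (-0.12 ± 0.09). Gzmb, the granzyme B gene, was at 0.0792, 17.4 and 4.08 CPM in yfp and at 0, 0, 3.85 and 1.87 CPM in DKO, overlapping groups with a fitted difference of -2.95 ± 2.20, and an unadjusted p of 0.201 that was 0.0156 without a filter on low counts and 0.0259 over all 60 CD8 libraries. Ifng, the interferon gamma gene, was at 2.26, 0 and 0 CPM and at 1.301, 6.99, 1.71 and 0 CPM.

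Of 25 effector and innate-like memory genes tested, 4 had an unadjusted p under 0.05, all lower in DKO: Itgb1, Anxa2, S100a6 and Lgals1. Over all genes, 2.01% were lower and 2.25% higher at that p. The median of the list was -0.14, with 16 members below 0 and 9 above. The interval lay within 1 of 0 for only 8 of the 25, so most differences were poorly resolved. Itgb1 encodes the β1 integrin chain of effector and memory cells, Anxa2 and S100a6 encode calcium-binding proteins that accumulate in antigen-experienced T cells, and Lgals1 encodes galectin-1. Anxa2 stood at 147, 49.8 and 90.5 CPM in yfp and at 26.3, 121, 41.8 and 25.5 CPM in DKO. DKO 2 lay inside the yfp range and the other 3 DKO libraries lay below it, and the fitted difference was -1.57 ± 0.45. Without the libraries of set 8 it was -0.87 (unadjusted p = 0.166), and with set as a block -2.33 (adjusted p = 0.442). S100a6 was split among the DKO libraries, with 18.1 and 19.3 CPM in DKO 2 and DKO 3 and 4.11 and 4.38 CPM in DKO 1 and DKO 4, against 13.6 to 52.5 CPM in yfp. Of the transcription factors of effector cells, Eomes averaged 84.3 CPM in yfp and 92.1 CPM in DKO (0.10 ± 0.19), and Tbx21, the gene of T-bet, 12.4 and 17.8 CPM (0.11 ± 0.38), differences smaller than their SE. Cd44, a marker of experienced cells, averaged 67.0 and 61.7 CPM (-0.37 ± 0.22, unadjusted p = 0.111), and within batch 1 all DKO libraries lay below both yfp libraries. DKO 2 was the highest DKO library for Cd44, at 91.9 CPM against 49.7 to 52.9 CPM in the other 3.

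Inhibitory receptors were mostly at low levels. Of 14 tested, 2 had an unadjusted p under 0.05, both lower in DKO, beside 2.01% of all genes lower and 2.25% higher. The median was -0.11, and the interval lay within 1 of 0 for only 4 of the 14. Cd160, a receptor for HVEM, stood at 108, 106 and 110 CPM in yfp and at 29.6, 63.7, 51.3 and 90.3 CPM in DKO. Its yfp libraries lay close together, all above the DKO libraries, with a fitted difference of -0.92 ± 0.31. Ctla4 stood at 12.6, 16.8 and 15.1 CPM in yfp and at 1.67, 15.8, 3.72 and 4.58 CPM in DKO, with DKO 2 inside the yfp range and a difference of -1.96 ± 0.77. Pdcd1, the gene of PD-1, ranged from 2.46 to 20.5 CPM in yfp and from 6.51 to 42.2 CPM in DKO, where DKO 2 was again the highest, and its difference of -0.01 ± 0.75 left a wide interval, from -1.62 to 1.59. Lag3 and Tigit were at 8.23 CPM or less in all 7 libraries, and Havcr2, the gene of TIM-3, had no count in yfp and reached 0.527 CPM in DKO 4; DESeq2 called it (adjusted p = 2.09e-05) at these levels near the floor, and edgeR did not.

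Markers of CD4 T cells and Tregs overlapped between the genotypes in their sum. The 11 markers, among which Ctla4 is shared with the inhibitory receptors, summed to 135, 250 and 204 CPM in yfp 1, 2 and 3 and to 80.7, 138, 101 and 150 CPM in DKO 1, 2, 3 and 4. The defining ones were at or near 0, with Cd4 at 0 in 6 of the 7 libraries and Foxp3 at 1.07 CPM or less. DKO 1 and DKO 3 lay below the yfp range, and DKO 2 and DKO 4 inside it. Of the 10 tested, 8 were below 0, the median was -0.75, and Ctla4, Folr4 and Lrrc32 were lower at an unadjusted p under 0.05. Over all genes, 2.01% were lower and 2.25% higher at that p. The interval lay within 1 of 0 for 0 of the 10. The part of these markers in the values of the activation transcripts was not tested. In bulk libraries fewer cells of a kind and less RNA per cell cannot be told apart.

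**Figure D2:**
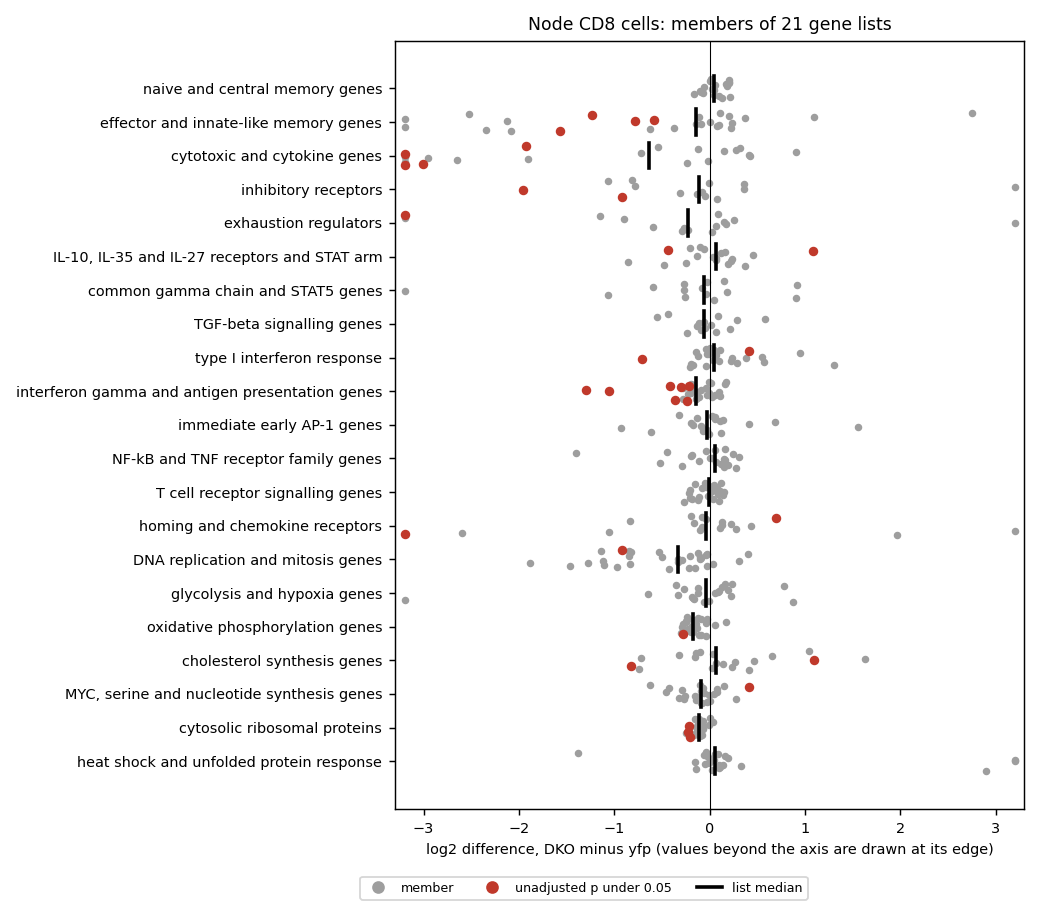
Log2 difference between DKO and yfp node CD8 cells (x axis) for the tested members of 21 gene lists (y axis), from the edgeR fit of 12 libraries; grey points are members, red points members with an unadjusted p under 0.05, black bars list medians, and values beyond 3.2 are drawn at the edge. Cytotoxic and cytokine genes have a median of -0.63 and DNA replication and mitosis genes one of -0.34, and the naive and central memory genes lie close to 0.

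In the cytokine arm, receptor genes gave small differences, and Socs3 was higher in DKO without passing the adjusted threshold. The 19 tested genes of the IL-10, IL-35 and IL-27 receptors and their STAT arm had a median of 0.06, with 11 above 0 and 8 below. Among receptors, Il10ra averaged 26.8 CPM in yfp and 29.7 CPM in DKO, with a fitted difference of -0.48 ± 0.42, Il10rb 117 and 140 CPM (0.20 ± 0.17), Il6st 201 and 248 CPM (0.07 ± 0.14) and Il27ra, the IL-27 receptor, 273 and 361 CPM (0.06 ± 0.14). Il12rb2 was low, at 0.238 to 6.90 CPM in yfp and 0.641 to 3.57 CPM in DKO. Socs3, the feedback inhibitor of gp130 and STAT3 signalling, stood at 29.1, 33.2 and 10.8 CPM in yfp and at 55.6, 41.8, 80.3 and 53.9 CPM in DKO. All 4 DKO libraries were above all 3 yfp libraries, and the fitted difference was 1.08 ± 0.26 (edgeR adjusted p = 1.0; DESeq2 adjusted p = 0.0265). With set as a block in place of batch it was 0.68 (unadjusted p = 0.128).

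Of the transducers, Stat3, which carries IL-10 signals, differed by -0.06 ± 0.13 and Stat4, which carries IL-12 signals, by -0.20 ± 0.12. Stat2, a transducer of type I interferon signals, was at 46.9 to 66.1 CPM in yfp and at 72.1 to 114 CPM in DKO (0.42 ± 0.19). Beside it, the 25 tested type I interferon response genes had a median of 0.05, with Stat2 higher and Ly6a, the gene of Sca-1, lower (-0.71 ± 0.27) at an unadjusted p under 0.05. Without yfp 2 the Ly6a difference was -0.32.

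Of 30 interferon gamma and antigen presentation genes tested, 23 were below 0 and 7 above, the median was -0.14, and none passed the adjusted threshold. At an unadjusted p under 0.05, 7 members were lower and 0 higher, beside 2.01% and 2.25% of all genes: B2m (β2-microglobulin), the immunoproteasome subunit genes Psmb8, Psmb9 and Psmb10, the factor gene Irf8 and the interferon-induced GTPase genes Gbp2 and Iigp1. Psmb9 stood at 241, 249 and 372 CPM in yfp and at 172, 218, 226 and 166 CPM in DKO, without overlap, with a difference of -0.41 ± 0.15. Iigp1 stood at 86.5, 69.4 and 56.9 CPM in yfp and at 24.8, 38.8, 49.0 and 30.9 CPM in DKO, also without overlap, with a difference of -1.05 ± 0.42, and of -0.62 (unadjusted p = 0.277) without the libraries of set 8. The class I heavy chain genes H2-K1 (-0.03 ± 0.08) and H2-D1 (0.06 ± 0.08) and the peptide transporter gene Tap1 (0.01 ± 0.15) were near 0. With set as a block, B2m (0.12) and Psmb8 (0.02) were above 0, so the direction of those 2 depended on the setting. Without yfp 2, Psmb8, Psmb10 and Irf8 differed by -0.14, -0.16 and -0.65, against -0.22, -0.30 and -1.29 with it. CPM groups without overlap were common overall: for 530 genes (4.3%) every DKO library was above every yfp library, and for 198 (1.61%) below.

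Processes of growth showed small or variable differences. Of 31 DNA replication and mitosis genes, 28 were below 0, the median was -0.34, and only Tyms, thymidylate synthase, had an unadjusted p under 0.05 (-0.92 ± 0.33). The proliferation gene Mki67 showed the spread behind this: 97.1, 170 and 14.8 CPM in yfp and 0, 124, 69.03 and 102 CPM in DKO. Without the libraries of set 8 the Tyms difference was -0.51. Oxidative phosphorylation genes had a median of -0.18 and cytosolic ribosomal proteins one of -0.11, with 25 of 27 and 31 of 32 members below 0. Beside these lists, 6175 of all 12336 genes tested were below 0 and 6161 above. In yfp 3 ribosomal transcripts were the highest of the 7 libraries, Rpl32 for instance at 4713 CPM against 1458 to 2294 CPM in the other 6, and with set as a block Rpl10 and Rpl32 were at 0.12 and 0.09, above 0. Without the batch term the Rpl32 difference was -0.89.

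The remaining lists held few or no members with an unadjusted p under 0.05. None was found among 14 genes of the common gamma chain and STAT5 (median -0.06), 14 of TGF-β signalling (-0.06), 21 immediate early AP-1 genes (-0.03), 21 genes of NF-kB and the TNF receptor family (0.06), 22 of glycolysis and hypoxia (-0.04) and 23 of heat shock and the unfolded protein response (0.06). Among 19 homing and chemokine receptor genes, S1pr4, a second sphingosine phosphate receptor, was higher (0.70 ± 0.28) and Ccr4 lower at levels near 0. Among 19 cholesterol synthesis genes, Insig1, which restrains sterol synthesis, was higher (1.09 ± 0.44) and Fdft1, squalene synthase, lower (-0.83 ± 0.32). Shmt2, mitochondrial serine hydroxymethyltransferase, was the 1 of 25 MYC, serine and nucleotide synthesis genes (0.42 ± 0.17), and Rgs16, detected in yfp 2 only among the 7 libraries, the 1 of 15 exhaustion regulators. Without yfp 1 the Insig1 difference was 1.82.

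The 12 genes with the smallest unadjusted p among those averaging at least 5 CPM in yfp or DKO were then described one by one. They were singled out after their values were seen, so their differences are a description. Of these, 5 were higher in DKO and 7 lower, their edgeR adjusted p ran from 0.21 to 1.0, and DESeq2 called all 12. DESeq2 was run on the same counts, filter and design from which the 12 were picked, so its calls are no separate support. Hmgn2, which encodes a nucleosome-binding chromatin protein, stood at 104, 99.2 and 123 CPM in yfp and at 33.5, 52.5, 39.3 and 36.0 CPM in DKO. The groups were far apart, the difference was -1.30 ± 0.22, and it ranged from -1.59 to -1.13 over 18 alternative settings. Without DKO 2, edgeR called Hmgn2 (adjusted p = 0.0291). Hmgn2 is known to have processed pseudogene copies, and how reads shared with them were counted was not examined.

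Sh3bgrl3, which encodes a small thioredoxin-like protein, stood at 575, 595 and 1473 CPM in yfp and at 339, 425, 393 and 375 CPM in DKO, with a difference of -0.71 ± 0.12. Cd52, the gene of a glycoprotein anchored on lymphocytes, stood at 1287, 1642 and 4024 CPM in yfp and at 962, 1210, 985 and 964 CPM in DKO (-0.68 ± 0.14). In both genes yfp 3, from batch 3, was far above the other yfp libraries, as were the 2 Ebi3L libraries of that batch. The Ebi3L values in batch 3 were 1063 and 1414 CPM for Sh3bgrl3 and 2584 and 3446 CPM for Cd52. Without yfp 3 the differences were -0.66 and -0.59, and without the batch term they were -1.42 and -1.39. With set as a block they were -0.52 (unadjusted p = 0.108) and -0.40 (unadjusted p = 0.195).

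Cd86, the gene of the B7-2 costimulatory ligand, stood at 64.8, 94.1 and 63.3 CPM in yfp and at 33.5, 30.8, 40.2 and 36.5 CPM in DKO (-1.29 ± 0.24). It is known best from antigen-presenting cells. Of their markers, Csf1r, Cd14, Clec9a and C1qa had no count here, while others were detected. Of the 8 tested, 6 were below 0 and 2 above, beside 6175 and 6161 of all genes, and the median was -0.57. Itgax was lower at an unadjusted p under 0.05, as were 2.01% of all genes. It stood at 0, 1.91 and 1.94 CPM in yfp and at 0, 0.197, 0 and 0 CPM in DKO. The 19 myeloid and dendritic cell markers summed to 97.1 to 223 CPM in yfp and to 73.7 to 103.5 CPM in DKO, mostly from Cst3, which was at 61.4 CPM or more in every node library. Their part in the Cd86 difference was not tested. Il1rap, the shared chain of the IL-1 and IL-33 receptors, stood at 34.4, 33.7 and 17.7 CPM in yfp and at 15.7, 8.56, 16.1 and 9.12 CPM in DKO (-1.43 ± 0.33). Prpf8, a core spliceosome gene, stood at 305, 256 and 137 CPM in yfp and at 206, 224, 213 and 192 CPM in DKO, groups that overlapped, and its difference of -0.51 ± 0.12 rests on the batch term: without the term it was -0.25 (unadjusted p = 0.313).

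Among genes higher in DKO, Reck, which encodes a membrane-anchored inhibitor of metalloproteinases, stood at 12.6, 16.7 and 21.3 CPM in yfp and at 41.9, 49.6, 43.8 and 39.0 CPM in DKO (1.33 ± 0.30). Rtn4rl1, a Nogo receptor family gene, stood at 18.3, 12.01 and 28.8 CPM in yfp and at 54.5, 43.6, 54.9 and 43.5 CPM in DKO (1.56 ± 0.29). Pcmtd2 stood at 65.5, 77.6 and 54.7 CPM in yfp and at 118, 87.6, 111 and 124 CPM in DKO (0.78 ± 0.18). The transcript 5830416I19Rik was nearly absent from yfp, with 1 count in the 3 libraries, and was at 8.07, 0.738, 7.01 and 6.85 CPM in DKO. Its summed counts, 503 in DKO and 1 in yfp, gave a ratio of 455 with an exact 95% interval for counting error from 81.3 to 18000. It was at 9.85 and 9.94 CPM in Il10 and at 2.80, 4.77 and 0.786 CPM in Ebi3L.

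**Figure D3:**
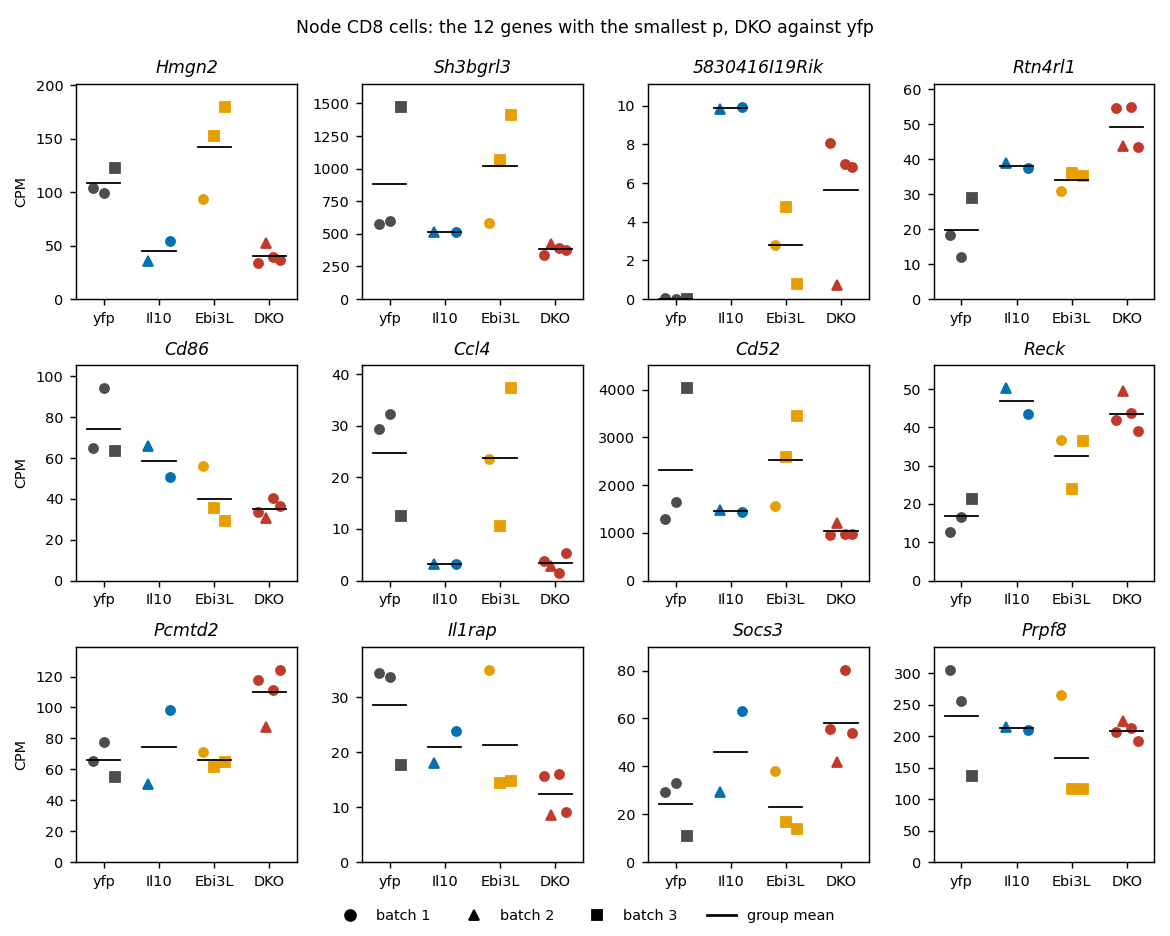
CPM (y axis, from 0) of the 12 genes with the smallest unadjusted p between DKO and yfp, in the 12 node CD8 libraries grouped by genotype (x axis); the shape gives the batch and the line the group mean. Hmgn2 is low in DKO and Il10, Ccl4 likewise, and the batch 3 libraries of yfp and Ebi3L are the highest for Sh3bgrl3 and Cd52.

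Several of these genes are neighbours. By RefSeq positions on GRCm38, the assembly of the mm10 build, 48 genes with an unadjusted p under 0.005 had a position, and 8 of them fell into 3 groups with gene starts at most 500 kb apart. The rule was set after the values were seen. The largest group lies on chromosome 4 and holds Hmgn2 (chr4:133964739-133967991), Cd52 (chr4:134093538-134095073), Ubxn11 (chr4:134102500-134126784) and Sh3bgrl3 (chr4:134127406-134128733), within 164 kb. Ubxn11, which encodes a UBX domain protein, stood at 62.1, 42.9 and 64.8 CPM in yfp and at 99.1, 121, 112 and 104 CPM in DKO, all higher, with a difference of 0.84 ± 0.21. The other groups were Rtn4rl1 and Prpf8 on chromosome 11, and Rell1 and 5830416I19Rik on chromosome 5. Within 1000 kb of the start of Sh3bgrl3, 29 genes averaged at least 5 CPM in one genotype and 7 of them had an unadjusted p under 0.05, higher or lower in DKO without a common direction. Over all 9382 genes at that level, 220 were higher and 194 lower at that p, and the window was centred on one of the genes that prompted it. One of them, Sytl1 (chr4:133253090-133263087), a synaptotagmin-like gene of vesicle traffic, stood at 28.6, 4.26 and 6.02 CPM in yfp and at 51.6, 45.3, 42.2 and 50.8 CPM in DKO. Its yfp 1 library was well above the other 2, the difference was 1.68 ± 0.52, and without yfp 1 it was 3.24 and was called (edgeR adjusted p = 0.0165).

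The tumour libraries of the same sources were then read for these genes. Node and tumour libraries share their sources, so whatever sets a source apart can recur in both. The counts of the 4 tumour CD8 populations were summed for each of the 12 sources and fitted with the same model over 14664 genes. The edgeR test called 2 genes between DKO and yfp (0.0136%), Sytl1, which rose by 1.89 ± 0.18 (adjusted p = 0.0030), and Rab4a, a gene of endosomal recycling, which rose by 2.69 ± 0.29 (adjusted p = 0.00623). In the node, Rab4a stood at 13.03, 2.52 and 6.09 CPM in yfp and at 18.01, 30.7, 45.2 and 26.1 CPM in DKO (1.73 ± 0.69), groups without overlap. Without yfp 2 that difference was 1.04, and with set as a block 0.56. Of the 12 genes singled out in the node, 10 had the same sign in the summed tumour counts and 5 had an unadjusted p under 0.05 there, all with the same sign. Over all genes, 5.07% had such a p in either direction, a share that does not allow for the shared sources. These 5 were Sh3bgrl3 (-0.62 ± 0.12), Hmgn2 (-1.44 ± 0.34), Reck (0.75 ± 0.19), Rtn4rl1 (0.67 ± 0.27) and Socs3 (0.62 ± 0.26). None of the 5 passed the adjusted threshold there.

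Around Sh3bgrl3 the node pattern returned in part in the tumour. Ubxn11 was higher in DKO by 1.38 ± 0.21 in the summed tumour counts (adjusted p = 0.0809 by edgeR) and Zdhhc18, a palmitoyltransferase gene 523 kb before Sh3bgrl3, by 0.72 ± 0.16, beside 0.57 ± 0.22 in the node (0.36 without yfp 1). Cd52 (-0.14 ± 0.13) and Cep85 (-0.01 ± 0.14) were near 0 in the tumour, against -0.68 and -0.72 in the node. Fitted in each population alone, Hmgn2 differed by -1.30 in the node and by -1.37, -1.04, -1.85 and -1.37 in the tumour NEG, INT, SP and DP cells, the populations in order of rising PD-1 and then TIM-3. Sytl1 differed by 1.68 in the node and by 1.41, 1.90, 2.54 and 1.87. These populations come from the same sources and are not independent of each other.

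The single knockouts, fitted against the same yfp libraries, gave these values side by side in the node. Hmgn2 differed from yfp by -1.13 in Il10, by 0.11 in Ebi3L and by -1.30 in DKO, and Ubxn11 by 0.75, -0.24 and 0.84. Cd86 differed by -0.53, -0.79 and -1.29, and Reck by 1.40, 0.87 and 1.33. Il10 and Ebi3L were not tested against each other. The test of whether DKO departed from the sum of Il10 and Ebi3L called 0 genes (0.0%), Ebi3L against yfp called 0 (0.0%), and Il10 against yfp called 1 (0.00811%), the condensin gene Ncapg, which stood at 0.0483 and 0 CPM in Il10 and at 13.3, 24.4 and 13.8 CPM in yfp (edgeR adjusted p = 0.0190), and at 7.75 to 29.3 CPM in DKO. At an unadjusted p under 0.05 edgeR gave 500, 547 and 573 genes in these 3 tests, and DESeq2 called 78, 80 and 107.

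**Figure D4:**
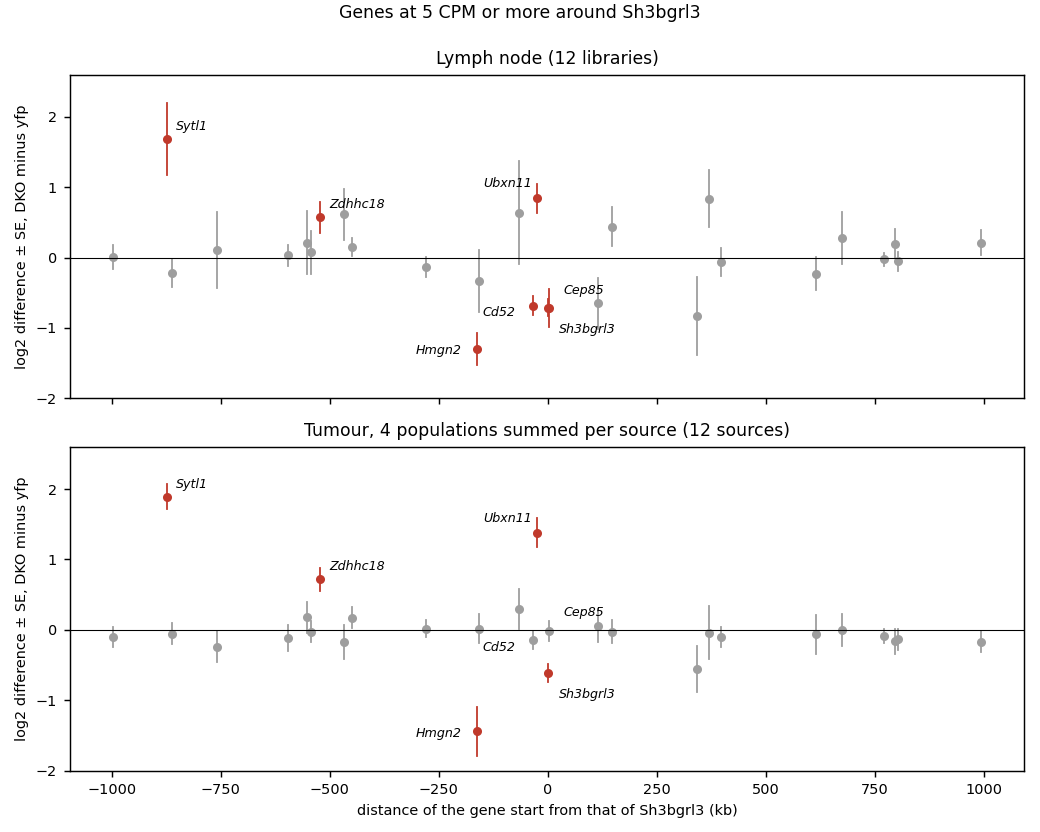
Log2 difference between DKO and yfp (y axis, bars are ± SE) of genes averaging at least 5 CPM in the node, by distance of their start from that of Sh3bgrl3 in kb (x axis), in node CD8 cells above and in the tumour populations summed per source below; red marks an unadjusted p under 0.05. Sytl1, Zdhhc18, Hmgn2, Ubxn11 and Sh3bgrl3 stand off 0 in both panels, and Cd52 and Cep85 in the node panel.

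For other genes the node and tumour values lay apart, although no difference between them passed the test. The DKO effect in the node minus its mean in the 4 tumour populations, tested as an interaction with each source as a block, called 0 of 14734 genes (0.0%) by edgeR, with 638 at an unadjusted p under 0.05, and the node minus the tumour NEG population called 0 (0.0%), with 538. Ccl4 differed by -3.003 in the node and by 1.05, 0.65, 0.71 and 0.36 in NEG, INT, SP and DP cells, each from a fit with batch as a term. The interaction, from a fit with source in place of batch, was -3.003 ± 0.82 (unadjusted p = 0.000897, adjusted p = 1.0) and is not the difference of those values. Without batch adjustment the mean CPM ran the other way in 3 tumour populations, with 259 in yfp and 160 in DKO for NEG, 375 and 209 for INT, and 1537 and 1383 for DP, so no direction is read for Ccl4 in the tumour. In the node the means were 24.7 CPM in yfp and 3.32 CPM in DKO. Pcmtd2 (0.64 ± 0.25) and Prpf8 (-0.46 ± 0.18) had interactions at an unadjusted p of 0.0141 and 0.0123. Psmb9 was lower in DKO in every population, by -0.41 in the node and by -0.42, -0.49, -0.56 and -0.39 in NEG, INT, SP and DP cells. Socs3 was higher in every population, by 1.08 in the node and by 0.58, 0.49, 1.28 and 0.56. In the summed tumour counts Psmb9 differed by -0.47 ± 0.13, at an edgeR adjusted p of 0.656. Il2, Xcl1 and Ccl3, lower in DKO node cells, were above 0 in the batch-adjusted fit of the summed tumour counts (2.98 ± 1.28, 1.52 ± 0.67 and 0.57 ± 0.73). Without batch adjustment the direction of their mean CPM differed between populations. In NEG cells Il2 averaged 4.73 in yfp and 0.498 in DKO, Xcl1 129 and 61.0, and Ccl3 38.1 and 14.3. In DP cells they averaged 0.0233 and 41.9, 184 and 768, and 834 and 898. No direction is therefore read for these genes in the tumour either.

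**Figure D5:**
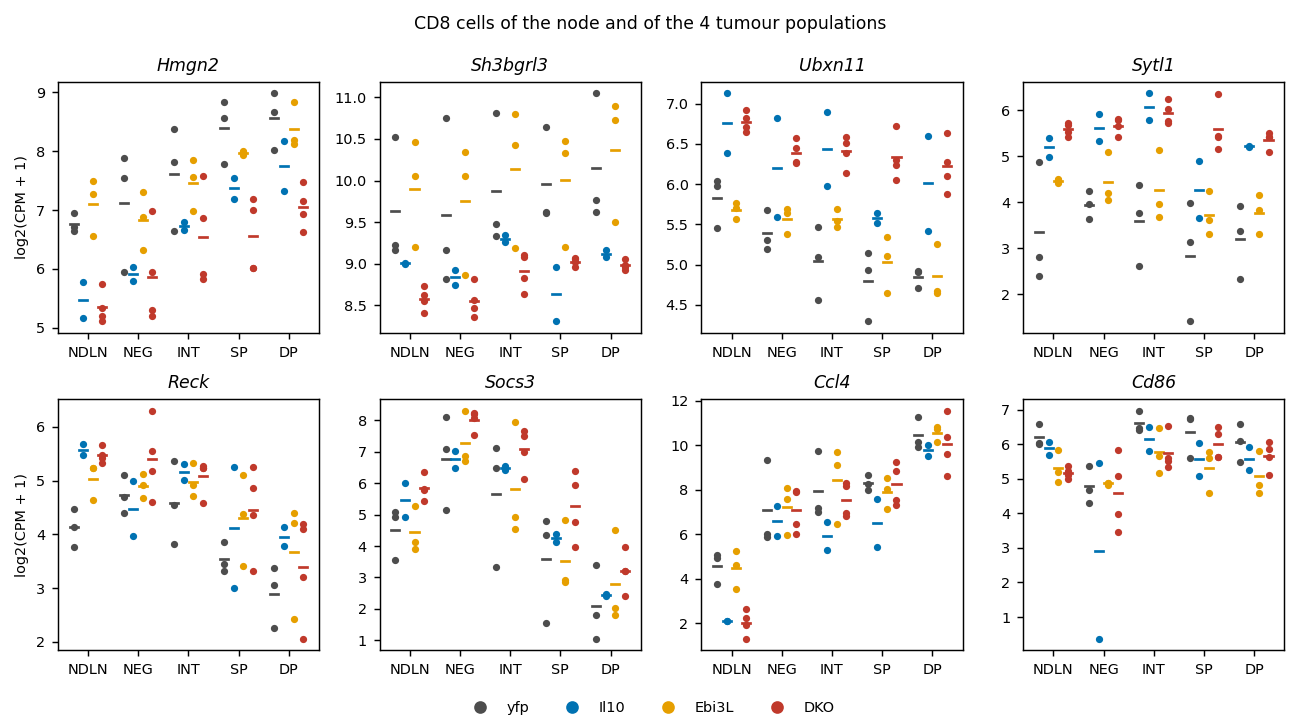
Log2(CPM + 1) (y axis) of 8 genes in the single libraries of the node (NDLN) and of the 4 tumour CD8 populations (x axis), coloured by genotype, with group means as bars. Hmgn2, Sh3bgrl3, Ubxn11 and Sytl1 separate DKO from yfp means in the same direction in all 5 populations, and the Ccl4 means lie farthest apart in the node.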

How the data were processed

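The values are the authors' deposited whole-number read counts per gene. STAR, featureCounts of the Subread package, limma and the mm10 build are named in the submitters' processing notes; for their versions, the annotation and strandedness no source used here gives a value. The authors' deposited log2 values were used for 1 alternative only. Members and gene lists were chosen with earlier results of these data known. Counts were fitted with edgeR 4.0.16 in R 4.3.3 (TMM scaling, filterByExpr, robust quasi-likelihood, genotype plus batch, 12 node libraries), with Benjamini-Hochberg adjustment at 0.05. Differences are fitted log2 differences adjusted for batch, with SE; CPM are counts scaled to the library total, not adjusted. DESeq2 1.42.0, limma 3.58.1, other filters, scalings, samples and blocks were alternatives. The rule for named genes took called genes, called list members and a list of T cell genes; since no gene was called between DKO and yfp, the 12 genes with the smallest unadjusted p at 5 CPM or more, list members with an unadjusted p under 0.05 and a few other list members were named after their values were seen. The test was checked on simulated counts that held no batch effect, so the check does not cover the uneven placement of batches. RefSeq positions matched 12278 of 12336 genes. The interval of the ratio of summed counts and the floors cover counting error only. Intervals of fitted log2 differences rest on the SE of the fit, which includes the scatter among libraries. Summing tumour counts per source, leaving out set 8 and the position rule were chosen after seeing the data. Set was not taken to pair libraries in the main fit. Deviations from genotype means correlated over 0.1 in 3 of 6 same-set pairs (range -0.18 to 0.39). Batch was not removed from these deviations, so they cannot decide whether sets pair libraries. The Treg libraries were not analysed here. Some genes are not reported here; they stay in the fits and in the counts over lists.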

Additional observations from a re-analysis of the deposited data

Results flagged for a closer look

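Among 84 genes followed, the 4 DKO libraries held 1 library far from the other 3 for 8 genes, by a rule that chance meets in about 1 of 20 groups. DKO 2, the only DKO library of batch 2, was that library for 7 of them: it was high for Cd52 (1210 CPM, next 985), Anxa2 (121 CPM, next 41.8), Irf8 (17.3 CPM, next 5.78), Cd44 (91.9 CPM, next 52.9), Pdcd1 (42.2 CPM, next 10.95) and Extl1 (0.148 CPM, the others at 0), and low for 5830416I19Rik (0.738 CPM, next 6.85). DKO 4 was that library for Ccl3, at 0.0405 CPM with the others at 0, which is below 3 counts. Batch 2 holds DKO 2 and Il10 1 among the node libraries and no yfp library, and its part in these values was not tested.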

How the results depend on the processing

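The comparison of DKO with yfp called 0 genes with DESeq2 size factors, a stricter filter, the 7 yfp and DKO libraries, batch 1 alone, no batch term, all 60 CD8 libraries, limma on the deposited values, or without set 8 (chosen after seeing the data). It called 22 genes with no filter and 81 with DESeq2; the cause was not tested. Leaving out 1 library gave 0 to 1 genes (Sytl1 without yfp 1, Hmgn2 without DKO 2). Genes at an unadjusted p under 0.05, 526 as reported, became 819 with no filter, 855 with 60 libraries and 296 with set as a block. With set as a replicate block, DKO called 0 genes, Il10 0 (339 at an unadjusted p under 0.05), Ebi3L 1 and the departure from the sum 0. DESeq2 called 107, 80 and 78 genes for Il10, Ebi3L and the departure, with 833 for Ebi3L and 798 for the departure at an unadjusted p under 0.05. Leaving out 1 source gave 0 to 2 genes for node minus tumour mean (Pdgfb and Dusp1 without DKO 1, Bag3 without DKO 4) and 0 for node minus NEG. Of 850 values of the 48 followed genes with an unadjusted p under 0.05, 846 kept their sign. The 4 others, all with set as a block, were B2m 0.12, Psmb8 0.0236, Rpl10 0.12 and Rpl32 0.086. These genes had that p in largely the same libraries, so the kept signs are no separate support. Of the remaining values, 100, in 29 genes, changed sign with neither p under 0.05. Depth limits genes below 0.102 to 0.156 CPM (3 counts).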
